A study of Mus musculus with 16 samples.

Results

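The genes described here encode the SR proteins, the heterogeneous nuclear ribonucleoproteins (hnRNPs), the SF3A and SF3B complexes and the proteins of the spliceosomal snRNPs. They were taken by name: every protein-coding gene whose GENCODE symbol begins with Srsf and a number, with Hnrnp, with Sf3a or Sf3b and a number, or with Snrp. This gave 52 genes of the 46078 in the count table, namely 11 SR protein genes, 20 hnRNP genes, 9 SF3 genes and 12 Snrp genes. All 52 were in the table. The rule uses names and no measured value, although it was set with earlier results of these data known.

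Splicing removes introns from the primary transcript in the spliceosome, which is built from small nuclear RNAs and their proteins. The Snrp genes encode the Sm ring that surrounds these RNAs and a few proteins particular to the U1 and U2 particles, and the SF3A and SF3B complexes hold the U2 particle at the branch point. SR proteins mostly bind exons and favour their use, whereas hnRNPs coat the nascent RNA and often act against nearby splice sites. Genes for SF3B1 and SRSF2 are recurrently mutated in myeloid neoplasms that arise from haematopoietic stem cells (HSCs), which is one reason to look at this machinery in these cells.

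Libraries were made with Smart-seq2 from pools of 30 HSCs (lin- Sca1+ cKit+ CD48- CD150+) of untreated C57/Bl6 mice, sorted separately from the bone fraction (endosteal BM) and the marrow fraction (central BM) of the long bones. Donors were wild type (WT) or Gfra2-/-. Gfra2 encodes the neurturin receptor, which cholinergic neurons need to survive. The labels name no conditional allele, so the knockout concerns the HSCs as well as their surroundings. Ages are not given in the sources used here. There were 4 WT endosteal, 4 WT central, 4 Gfra2-/- endosteal and 3 Gfra2-/- central libraries with a column that could be tied to its group, called A to D below in the order of the table.

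Gene counts per library ranged from 826487 to 18550008, and the 4 WT central libraries were the shallowest, with 826487 to 3367289. Gfra2 itself had 0 to 4 counts in the 8 WT libraries and 0 to 47 counts in the 7 libraries labelled Gfra2-/-. The libraries labelled Gfra2-/- endosteal B and D held 47 and 9 counts, against their label. Since WT HSCs held almost none, the gene could not serve to check the genotypes, which are given as labelled. Reads outside annotated genes made up 10.7% to 20.6% in the WT libraries and 19.8% to 30.1% in those labelled Gfra2-/-. All 10 HSC markers that were examined, among them Kit, Procr and Mecom, had counts in every group, with a summed level of 2111 to 4240 CPM. Gfra2-/- endosteal D also held 1704 CPM of B cell markers and 430 CPM of erythroid markers, above every other library. Erythroid markers summed to 159 CPM in Gfra2-/- endosteal B and 17.7 CPM in Gfra2-/- endosteal A, and to less in the rest. The B cell list had Igll1 at 0 in all 15 libraries. Myeloid markers summed to 2612 and 2353 CPM in WT central C and D and to 1627 CPM in Gfra2-/- central C, against 476 to 994 CPM in the other 12. Of the 7 myeloid markers, Mpo, Elane and Ctsg had 0 counts in every WT central library. Ctsg also had 0 in every Gfra2-/- central library.

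Levels below are CPM (the usual depth-scaled counts) after TMM scaling over the 15 libraries, and a log2 fold change with its standard error (SE) comes from edgeR's quasi-likelihood test with Benjamini-Hochberg adjustment over all genes tested. A gene was called at an adjusted p under 0.1, and counts at an unadjusted p under 0.05 are given beside the same share of all genes tested. Shares called by DESeq2, the alternative test, are over every gene to which it gave a p, without the filter on low counts. They thus include more low genes than the edgeR shares. Srsf12 was the single member that did not pass the filter on low counts. It had 59 counts in Gfra2-/- endosteal A, 2 in Gfra2-/- central C, 1 in WT endosteal C and none in the other 12 libraries. The remaining 51 genes were tested in each comparison.

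Together the 52 genes took a share of all gene counts of 1.06% to 1.22% in WT endosteal libraries, 0.989% to 1.14% in WT central, 0.900% to 1.29% in Gfra2-/- endosteal and 0.906% to 1.03% in Gfra2-/- central libraries. The genotypes overlapped in both compartments. In endosteal BM they did so through Gfra2-/- endosteal B alone, at 1.29%, since the other 3 libraries of that group were at 0.900% to 0.929%.

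Per kilobase of exon, the scale used here to compare genes, Hnrnpa2b1 stood highest with a mean of 225 CPM per kb over the 15 libraries (range 157 to 298). Hnrnpa2b1 binds RNA in the nucleus and sorts RNAs for transport. Snrpb, which encodes the Sm proteins B and B', followed with 199 CPM per kb (144 to 230). These 2 ranges overlapped widely. The next genes in the order were Srsf7 with 134 CPM per kb, Srsf2 with 119, Snrpe with 112 and Srsf6 with 105, and their ranges overlapped as well. The highest SF3 gene was Sf3b6, whose product touches the branch point adenosine, at 58.9 CPM per kb, followed by Sf3b2 at 54.3 and Sf3b1 at 50.2.

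**Figure D1:**
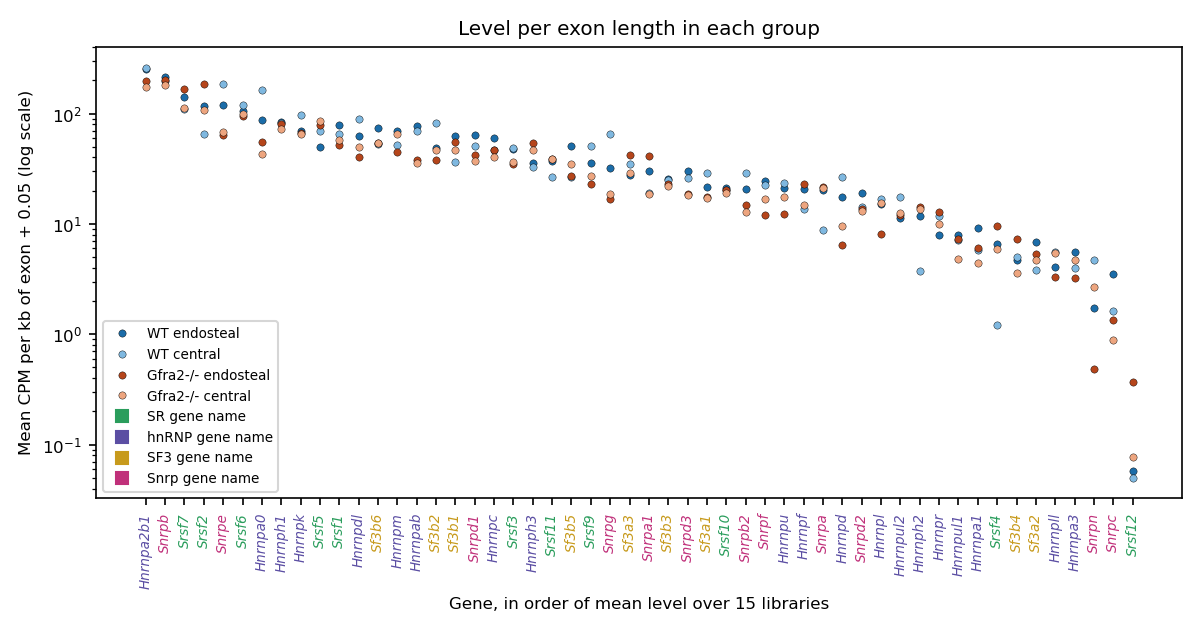
Mean CPM per kb of exon (with 0.05 added, log scale) of the 52 genes, ordered by their mean over 15 libraries, with 1 point for each group and the gene names coloured by family. Hnrnpa2b1 at 225 and Snrpb at 199 CPM per kb stood at the top. Group means lay apart for some abundant genes as well as for low genes at the right. Snrpe had 120 CPM per kb in WT endosteal, 185 in WT central, 63.5 in Gfra2-/- endosteal and 68.3 in Gfra2-/- central HSCs.

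Subfamily medians lay near each other, at 42.2 CPM per kb for the SR protein genes, 33.8 for the SF3 genes, 21.6 for the Snrp genes and 18.4 for the hnRNP genes. Within each family the levels spanned a wide range, from 4.34 to 225 CPM per kb for hnRNP genes and from 1.86 to 199 for Snrp genes. At the low end stood Srsf12 at 0.0916 CPM per kb, then Snrpc, a U1 protein gene, at 1.86 and the imprinted gene Snrpn at 2.33.

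Hnrnpa1, a textbook splicing repressor, was listed at only 6.44 CPM per kb. Of all stretches of 50 bases, the read length, in its transcripts, 28.2% also occurred in transcripts of 20 other genes, 19 of them pseudogenes. For Hnrnpa3 this share was 27.1%, for Hnrnpf 61.9% and for Snrpf 89.5%, so their levels are uncertain. For Snrpf the shared bases lay mainly in the overlapping gene Ccdc38 on the opposite strand. Exons of 19 of the 52 genes overlap those of another gene, mostly on the opposite strand. Smart-seq2 does not mark strand, so reads along the overlap cannot be told apart on either strand. Srsf2 (overlapping Mettl23 and Mfsd11), Hnrnpab (Phykpl) and Snrpn (Snurf) are among them.

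Libraries of 1 group varied more for low genes. The median within-group SD of log2(CPM + 1) was 0.40 for the 20 genes with a mean of at least 200 CPM, 0.59 for the 21 genes between 50 and 200 CPM and 0.77 for the 11 genes under 50 CPM. Hnrnpa2b1 had the smallest SD, 0.20, and Snrpb had 0.21. Hnrnpa0 was an exception among the abundant genes, with an SD of 0.88.

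**Figure D2:**
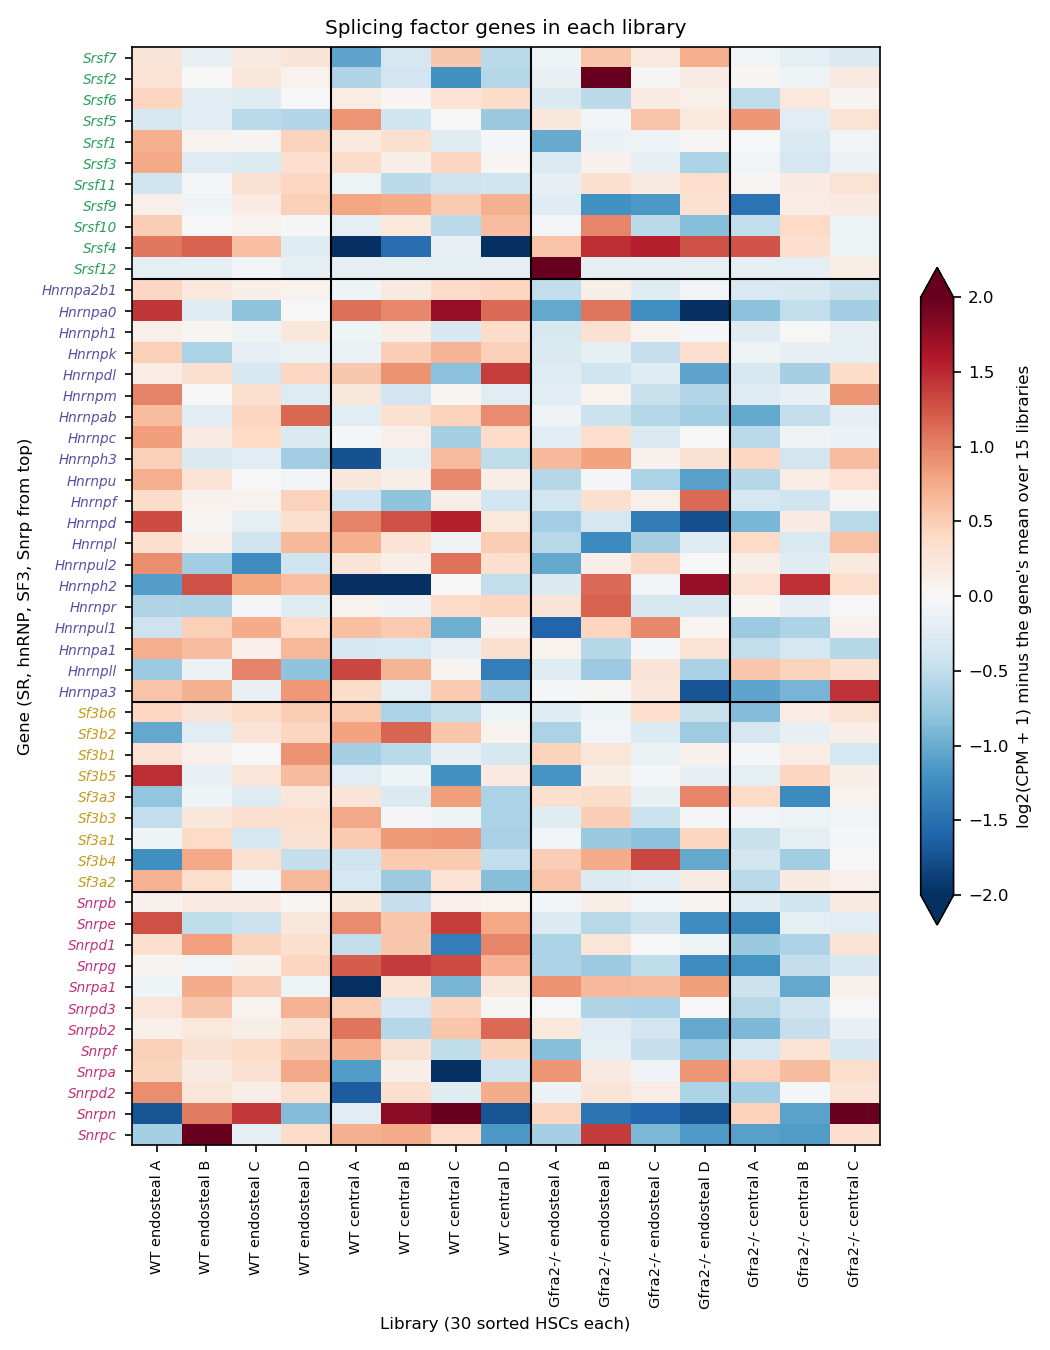
Each row is 1 of the 52 genes, each column 1 of the 15 libraries, and the colour gives log2(CPM + 1) minus the gene's mean (darkest beyond 2 in either direction). Most Snrp and hnRNP rows are bluer in the libraries labelled Gfra2-/- than in WT, Srsf2 stands out in Gfra2-/- endosteal B at 1241 CPM, and the rows of low genes such as Snrpn and Snrpc are the most uneven.

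The compartment comparison asked whether HSCs near the bone surface differ from those of the central marrow. In WT mice none of the 51 tested genes was called by edgeR, and none of the 11181 genes tested was (0% called in either direction). With an unadjusted p below 0.05, 2 members had higher levels and 2 had lower levels in endosteal HSCs, which is 3.92% each way, beside 4.43% higher and 3.46% lower over all genes tested. The median log2 fold change was 0.09 over the members and 0.03 over all genes.

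Sf3b1 encodes the largest SF3B subunit. Its levels in WT endosteal libraries were 673, 589, 555 and 1023 CPM, and those in WT central libraries were 348, 379, 491 and 438 CPM. Every endosteal library stood above every central one, at a log2 fold change of 0.76 (SE 0.27, adjusted p = 0.534 by edgeR).

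Srsf2, an SR protein that binds exonic enhancers, had 378, 309, 359 and 324 CPM in WT endosteal and 201, 237, 132 and 207 CPM in WT central libraries. The groups did not overlap here either, with a log2 fold change of 0.80 (SE 0.30, adjusted p = 0.563 by edgeR).

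Snrpg, a small subunit of the Sm ring, went the other way with 46.7, 43.5, 47.8 and 61.2 CPM in endosteal against 106, 120, 112 and 73.2 CPM in central libraries. The log2 fold change was -1.07 (SE 0.48, adjusted p = 0.623 by edgeR), and DESeq2 called it at an adjusted p of 0.0274. It was the only member DESeq2 called in WT, beside 1.45% of all genes called lower. Sf3b2, the partner of the SF3B complex that contacts RNA near the branch site, overlapped between the groups at a log2 fold change of -0.77 (SE 0.35). For Sf3b2 the difference in mean log2(CPM + 1) was -1.17 over the 6 libraries richer in spike-in reads and 0.36 between the other 2, which had under 0.5%, and for Snrpg it was -1.27 and -0.25.

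In all, the 2 WT groups did not overlap for 3 members with the higher level and 2 with the lower level in endosteal HSCs, beside 4.27% and 2.10% of all genes. The shallow depth of the WT central libraries moved with this comparison. With all libraries thinned to the smallest the members' median was 0.02, beside -0.08 over all genes. With spike-in RNAs for scaling, the median of all genes moved to 1.58, and relative to that median Sf3b2 was at -0.10 and Snrpg at -0.64.

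Of the other members, Srsf4 was at a log2 fold change of 2.56 between the WT compartments, but with an SE of 1.30 and overlapping libraries, and 39.5% of its 50-base stretches also occurred in Gm12992. Snrpa, a U1 protein gene, was at 1.17 (SE 0.78) and did not overlap, with only 22, 157, 2 and 98 counts in the WT central libraries. Hnrnpr, an hnRNP related to Syncrip, was at -0.59 (SE 0.32) and Sf3b5, a small SF3B subunit, at 0.90 (SE 0.46), both with overlap.

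Between the libraries labelled Gfra2-/-, no member and none of the 13860 genes tested was called by edgeR (0% in either direction). Before adjustment, 1 member (1.96%) stood higher and 1 (1.96%) stood lower at p under 0.05, beside 2.74% and 2.05% over all genes. Snrpa1, a U2 snRNP protein gene, had 144, 121, 121 and 138 CPM in endosteal and 56.9, 37.4 and 81.5 CPM in central libraries. The endosteal libraries all stood above the central ones, at a log2 fold change of 1.16 (SE 0.35, adjusted p = 0.896 by edgeR), and DESeq2 called it at an adjusted p of 0.0492, beside 0.997% of all genes called higher. In WT mice, Snrpa1 had 72.2, 130, 108 and 71.7 CPM in endosteal and 15.4, 93.0, 40.1 and 90.7 CPM in central libraries, which overlapped. Hnrnpl, which binds CA-rich RNA, was lower in endosteal Gfra2-/- libraries at a log2 fold change of -0.93 (SE 0.41) and overlapped. Snrpa1 was the one member with every endosteal library above the central ones and Hnrnpll the one with every endosteal library below, beside 3.68% and 3.67% of all genes.

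**Figure D3:**
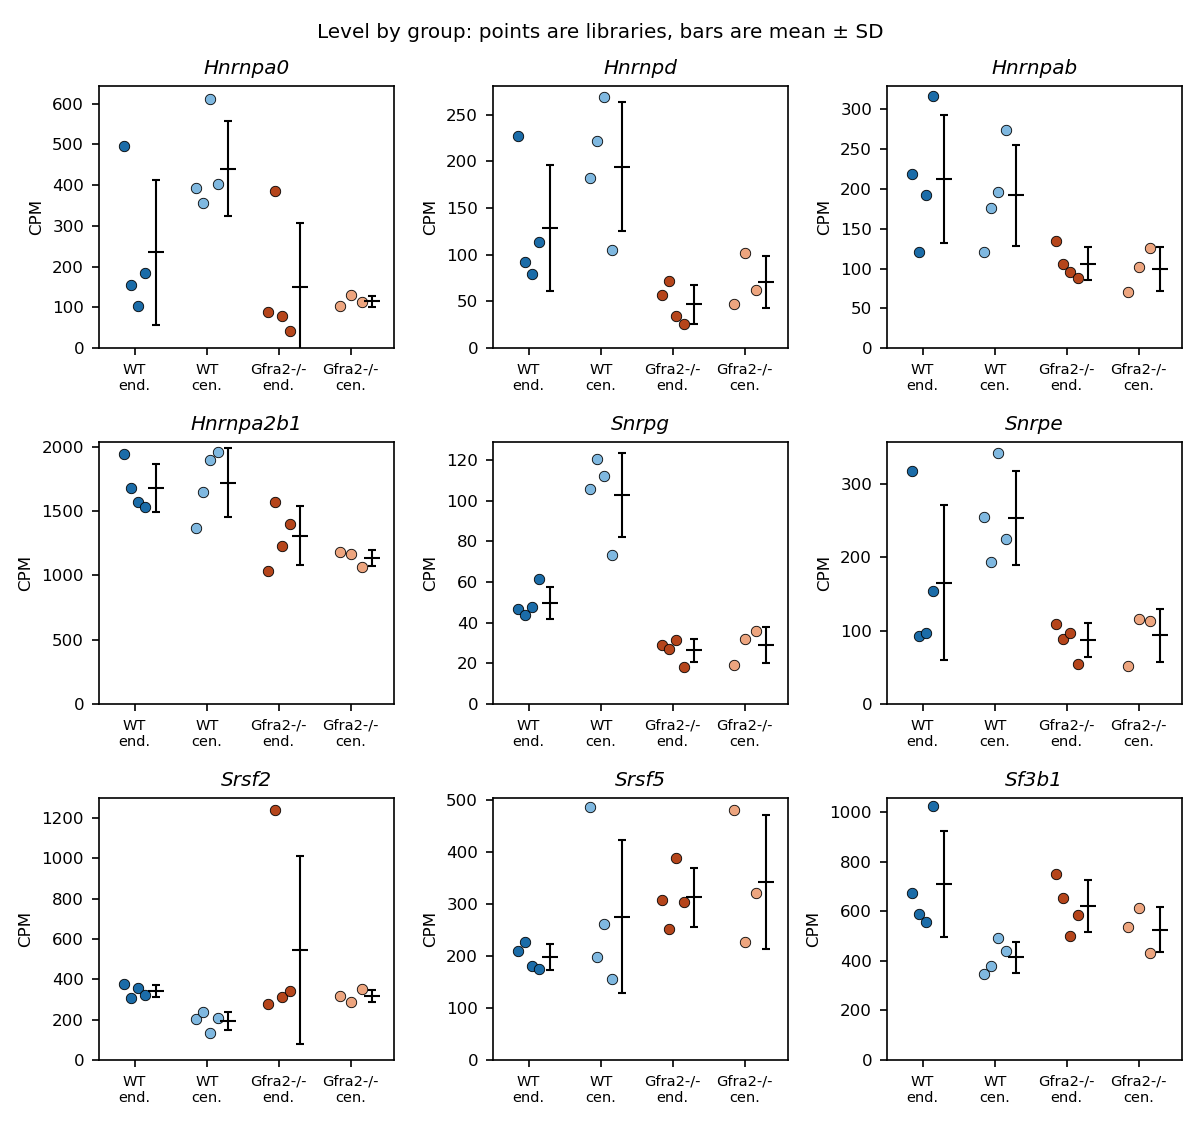
CPM (linear axes from 0) of 9 of the genes by group, with 1 point for each library in the order A to D and a bar for mean ± SD. The 7 libraries labelled Gfra2-/- lie below the 8 WT libraries without overlap for Snrpg, and with overlap for Hnrnpd, Hnrnpab, Snrpe and Hnrnpa2b1, while 1 library sets the mean of Srsf2 in Gfra2-/- endosteal HSCs.

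The genotype comparison asked how HSCs from mice with few cholinergic nerves differ from WT HSCs of the same compartment. In central BM, 36 of the 51 tested members had a lower and 15 a higher fitted level in the libraries labelled Gfra2-/-, beside 48.6% lower over all genes. The median log2 fold change was -0.28 over the members and 0.03 over all 11772 genes tested. With at least 10 counts in every library it was closer to 0, at -0.089 over the members and -0.017 over all genes that passed. None of the members was called by edgeR, beside 0.051% of all genes called (6 genes). With an unadjusted p below 0.05, 7 members were lower (13.7%) and none higher, beside 4.14% lower and 4.60% higher over all genes. Among genes with at least 10 counts in every library of this comparison the share that was lower at this p was 7.01%.

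The 7 members with lower levels were 4 hnRNP genes, 2 Snrp genes and 1 SF3 gene. Of the families, 11 of 12 Snrp genes, 15 of 20 hnRNP genes, 5 of 9 SF3 genes and 5 of 10 SR protein genes had a fitted level below WT. The family medians were -0.51, -0.36, -0.19 and -0.05 on the log2 scale in that order.

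Hnrnpa0, an hnRNP that binds AU-rich elements of messenger RNAs, had the smallest adjusted p of the members. It stood at 392, 356, 612 and 402 CPM in WT central and at 103, 129 and 113 CPM in Gfra2-/- central libraries. The groups did not overlap, at a log2 fold change of -1.96 (SE 0.34, adjusted p = 0.136 by edgeR). DESeq2 called it at an adjusted p of 0.000182, beside 1.81% of all genes called lower. In edgeR fits with no filter, with at least 10 counts in every library, or with all libraries thinned to the smallest, its adjusted p was 0.0123, 0.0415 and 0.0859. It was not called in any edgeR fit with a single library left out, or with the share of spike-in reads as a covariate. Nor was it called among libraries with over 1500000 gene counts and under 20% mitochondrial.

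Snrpg had 19.0, 32.0 and 35.7 CPM in Gfra2-/- central libraries against the 73.2 to 120 CPM of WT central HSCs given above, again without overlap. Its log2 fold change was -1.85 (SE 0.59, adjusted p = 0.362 by edgeR), and DESeq2 called it at 0.00424. Snrpe, another subunit of the Sm ring, had 255, 194, 342 and 224 CPM in WT and 52.4, 116 and 113 CPM in Gfra2-/- libraries, a log2 fold change of -1.46 (SE 0.43, adjusted p = 0.334).

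Hnrnpd (also known as AUF1), which binds AU-rich elements and directs messenger RNA decay, had 183, 221, 269 and 105 CPM in WT and 47.7, 102 and 62.6 CPM in Gfra2-/- central libraries. These groups were separate by a narrow margin, at a log2 fold change of -1.48 (SE 0.48, adjusted p = 0.380). DESeq2 called Snrpe and Hnrnpd too, at adjusted p of 0.0580 and 0.0753.

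Hnrnpa2b1 differed by less but varied little, with 1371, 1649, 1900 and 1960 CPM in WT against 1179, 1166 and 1067 CPM in Gfra2-/- central libraries (log2 fold change -0.62, SE 0.21, adjusted p = 0.401 by edgeR). Sf3b2 and Hnrnpab, a relative of Hnrnpd, overlapped between the groups at -0.84 (SE 0.32) and -0.98 (SE 0.44). For 8 members every Gfra2-/- central library stood below every WT central one and for 5 above, beside 4.45% and 7.98% of all genes. Srsf2 was among those above, with 315, 289 and 350 CPM against 132 to 237 CPM (log2 fold change 0.68, SE 0.33). The WT central libraries of this comparison are those of the WT compartment comparison, so that their values enter both. With 4 against 3 libraries, a two-sided exact permutation test of a single gene cannot go below p = 0.0571.

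Among the other members, Sf3a1, an SF3A subunit, was at -0.76 (SE 0.46) with overlap in central BM. Srsf4 at 2.40 (SE 1.44), Snrpa at 1.22 (SE 0.86) and Srsf11 at 0.50 (SE 0.31) were higher in every Gfra2-/- central library than in any WT central one. Srsf3, a small SR protein, was lower in every one at -0.44 (SE 0.29), as was Hnrnpa1 at -0.44 (SE 0.95). In the shallow WT central libraries Srsf4 had only 0, 13, 9 and 1 counts, and Snrpa had 22, 157, 2 and 98. The separation of Srsf4 and Snrpa thus rests on few counts in some libraries.

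The promoters of the 4 genes with the smallest p in this comparison are shown for their sequence around the start site, from 80 bases before it to 20 after it in RefSeq's annotation of GRCm38.p6, read 5′ to 3′ on the gene's strand. Capitals mark matches, on either strand, to the ETS core with the letters CCGGAAG, to the CCAAT box of just those letters, to the E-box spelled CACGTG or to the GC box spelled GGGCGG.
Hnrnpa0, chr13:58128537-58128636, minus strand: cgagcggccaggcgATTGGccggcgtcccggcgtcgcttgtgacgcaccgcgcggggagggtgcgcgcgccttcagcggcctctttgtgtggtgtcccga
Snrpe, chr1:133610261-133610360, minus strand: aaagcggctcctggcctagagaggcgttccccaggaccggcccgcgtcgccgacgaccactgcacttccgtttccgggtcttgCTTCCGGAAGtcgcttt
Snrpg, chr6:86371460-86371559, plus strand: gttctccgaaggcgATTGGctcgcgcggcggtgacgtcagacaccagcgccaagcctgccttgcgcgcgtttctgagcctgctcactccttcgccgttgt
Hnrnpd, chr5:99978919-99979018, minus strand: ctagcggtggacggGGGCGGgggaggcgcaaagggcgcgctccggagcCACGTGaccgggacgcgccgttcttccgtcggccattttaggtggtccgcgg
None of the 4 stretches holds the letters TATAAA. In Hnrnpa0 and Snrpg a CCAAT box in reverse (ATTGG) begins at the same distance from the start, and in Snrpe ETS cores on both strands overlap close to the start.

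Over windows of 250 bases before to 50 after the start, which RefSeq's table held for 46 of the 52 genes, an ETS core was found in 34.8% of members and in 20.6% of the 9507 protein-coding genes tested. It was most frequent in the SF3 genes, in 6 of the 7 with a window (85.7%), against 4 of 10 Snrp, 4 of 11 SR protein and 2 of 18 hnRNP genes. A CCAAT box was found in 50% of members beside 43% of genes tested, and in 13 of 18 hnRNP genes (72.2%). GC boxes were in 71.7% of members beside 68.6%, E-boxes in 13% beside 11.9% and TATAAA in 15.2% beside 8.35%. These are matches of letters and no evidence of binding.

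In endosteal BM the comparison between the genotypes shares no library with the central one, though donors may be shared, which the sources do not say. Here 37 of 51 tested members were fitted lower and 14 higher in the libraries labelled Gfra2-/-, beside 48.5% lower over all genes. The median log2 fold change was -0.35 for the members and 0.03 for all 12970 genes tested. No gene of any kind was called by edgeR (0%). At an unadjusted p under 0.05, 4 members were lower (7.84%) and 1 higher (1.96%), beside 3.52% and 3.18% over all genes.

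Hnrnpd had 227, 92.5, 79.4 and 114 CPM in WT endosteal against 56.3, 71.9, 33.8 and 26.1 CPM in Gfra2-/- endosteal libraries. The groups did not overlap, and the log2 fold change of -1.44 (SE 0.47, adjusted p = 0.737 by edgeR) was close to that in central BM. Hnrnpab had 219, 121, 193 and 317 CPM in WT and 135, 105, 96.1 and 88.0 CPM in Gfra2-/- libraries, which overlapped by 1 WT library. The group means were 213 CPM ± 81.1 and 106 CPM ± 20.5 (SD, n = 4 each). Hnrnpa0 had 496, 154, 104 and 184 CPM in WT and 89.3, 386, 78.1 and 41.5 CPM in Gfra2-/- endosteal libraries, which overlapped through Gfra2-/- endosteal B. Snrpe, at -0.92 (SE 0.44), overlapped too. Hnrnpu, a large nuclear scaffold protein gene, was at -0.80 (SE 0.30), and Hnrnpdl, which lies 54639 bp from Hnrnpd on chromosome 5 and encodes a similar protein, was at -0.62 (SE 0.27).

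Srsf5 was the member with a higher level at this p. It had 209, 227, 180 and 174 CPM in WT and 251 to 389 CPM in the 4 Gfra2-/- endosteal libraries, without overlap, at a log2 fold change of 0.67 (SE 0.23, adjusted p = 0.737 by edgeR). DESeq2 called it at an adjusted p of 0.0956, beside 1.29% of all genes called higher.

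DESeq2 also called 2 members of the Sm ring lower, Snrpf at an adjusted p of 0.0133 and Snrpg at 0.0342, beside 1.20% of all genes. Snrpf had 22.1, 19.5, 20.3 and 23.0 CPM in WT and 8.16, 13.5, 11.1 and 8.82 CPM in Gfra2-/- libraries. By edgeR its log2 fold change was -1.03 with an SE of 0.69 and an adjusted p of 0.827. Snrpg had 28.9, 26.9, 31.3 and 18.2 CPM in Gfra2-/- endosteal libraries, all below the 43.5 CPM of the lowest WT endosteal library (log2 fold change -0.92, SE 0.47).

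Of the families, 10 of 12 Snrp genes, 15 of 20 hnRNP genes, 7 of 9 SF3 genes and 5 of 10 SR protein genes were fitted below WT, with medians of -0.64, -0.35, -0.30 and 0.00. Every Gfra2-/- endosteal library stood below every WT endosteal library for 6 members and above for 1, beside 3.55% and 2.68% of all genes. Of these 6, 4 belong to the Sm ring, among them Snrpf with its uncertain level. One of them is Snrpd3, which had 81.2 to 127 CPM in WT and up to 77.7 CPM in Gfra2-/- endosteal libraries (log2 fold change -0.69, SE 0.34, adjusted p = 0.750 by edgeR). Srsf1, the prototype of the SR proteins, is another of the 6, with 571, 368, 363 and 481 CPM in WT and 174, 322, 327 and 357 CPM in Gfra2-/- endosteal libraries, a narrow gap (log2 fold change -0.59, SE 0.28, adjusted p = 0.743 by edgeR). In central BM it overlapped, at -0.21 (SE 0.29). With 4 against 4 libraries, the smallest two-sided p of an exact permutation test is 0.0286, which every gene without overlap reaches.

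Across the 2 genotype comparisons, 31 of 51 members (60.8%) were fitted lower and 9 (17.6%) higher in both, where 28.0% and 30.2% of the 11405 genes tested in both were. By family, 10 of 12 Snrp genes (83.3%), 13 of 20 hnRNP genes (65.0%), 5 of 10 SR protein genes (50%) and 3 of 9 SF3 genes (33.3%) were lower in both. The test of the difference between compartments, the genotype by compartment interaction, called no gene (0% of 15416). At an unadjusted p under 0.05, 1 member, Sf3b5, had a more negative genotype difference in endosteal than in central BM (log2 difference -1.30, SE 0.61), which is 1.96% of members beside 4.41% of all genes. None had a more positive one, beside 2.56% of all genes. Sf3b5 had 109 to 338 CPM in WT endosteal, 52.1 to 140 CPM in WT central, 53.0 to 131 CPM in Gfra2-/- endosteal and 108 to 164 CPM in Gfra2-/- central libraries, so that all 4 groups overlapped. DESeq2 called none of the members for the interaction, beside 1.03% of all genes. Hnrnpm and Hnrnpr, which followed, had interaction terms of -0.95 (SE 0.46) and 0.95 (SE 0.48), and Sf3a3 had 0.87 (SE 0.67). The terms of the genes with the lowest p in the genotype comparisons were 0.01 (SE 0.67) for Hnrnpd, 0.91 (SE 0.65) for Snrpg, 0.51 (SE 0.61) for Snrpe and 1.28 (SE 0.85) for Hnrnpa0. SEs of this size leave room for sizeable differences between compartments.

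**Figure D4:**
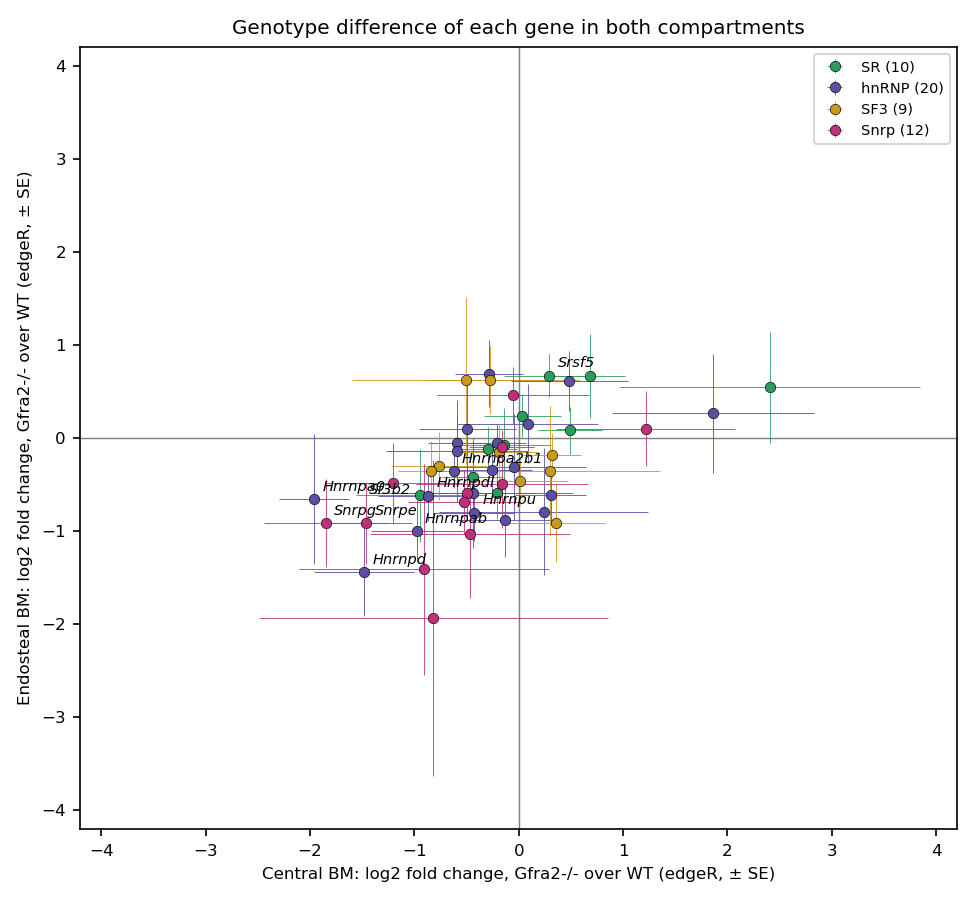
Log2 fold change of the 51 tested genes between libraries labelled Gfra2-/- and WT, in central BM (x axis) and endosteal BM (y axis), each ± SE and coloured by family. Names mark the genes with an unadjusted p under 0.05 in either comparison, 31 genes lie below 0 on both axes, and Hnrnpd lies near -1.5 on both axes.

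A fit of genotype over all 15 libraries with the compartment as a term was added after these values had been seen. The 15 libraries include all those above, so its results do not stand apart from them. It called 0.525% of all 15416 genes lower and 0.279% higher, and of the members it called Hnrnpd alone, at a log2 fold change of -1.45 (SE 0.33, adjusted p = 0.0770 by edgeR). Hnrnpd ranged from 79.4 to 269 CPM with a median of 148 in the 8 WT libraries and from 26.1 to 102 CPM with a median of 56.3 in the 7 libraries labelled Gfra2-/-. Its adjusted p was 0.111 to 0.210 when WT endosteal A or D, WT central A, B or C, Gfra2-/- endosteal C or D, or any of the 3 Gfra2-/- central libraries was left out, so that the call rested on each of these 10 libraries. It was 0.172 without the libraries against their label, Gfra2-/- endosteal B and D.

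Of the 51 tested, 37 were fitted lower and 14 higher, beside 45.3% lower over all genes. At an unadjusted p under 0.05, 12 members (23.5%) were lower and 1 (1.96%), Srsf2, was higher, beside 5.38% and 6.54% of all genes and 10.5% lower among genes with at least 10 counts in every library. The 12 were 6 hnRNP genes, 4 Snrp genes, Srsf3 and Sf3b2. Srsf2 overlapped between the genotypes (two-sided exact permutation p = 0.0870, unadjusted), with its highest value in Gfra2-/- endosteal B. Snrpg, Hnrnpab, Snrpe and Hnrnpa2b1 followed Hnrnpd in order of p, at -1.33 (SE 0.35), -0.98 (SE 0.26), -1.16 (SE 0.31) and -0.47 (SE 0.13). Their adjusted p were 0.118, 0.118, 0.126 and 0.133 by edgeR. DESeq2 called 10 members lower and none higher, beside 3.10% and 2.44% of the 22520 genes with a DESeq2 p.

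Snrpg was the one member whose 7 values in the libraries labelled Gfra2-/- (18.2 to 35.7 CPM, median 28.9) all lay below its 8 WT values (43.5 to 120 CPM, median 67.2), beside 0.182% of all genes. Its two-sided exact permutation p was 0.000311, the smallest that 8 against 7 libraries can give, unadjusted and for a gene singled out after its values were seen. Within the 11 libraries with more spike-in reads the difference in mean log2(CPM + 1) was -1.37 for Snrpg and -1.46 for Hnrnpd, and within the 4 with under 0.5% spike-in reads it was -1.36 and -1.41.

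Spike-in RNAs as the scale changed the sign of many of these differences. On that scale the median of all genes lay at 1.75 in central, -0.28 in endosteal and 0.74 in both compartments together, and the members' medians lay at 1.54, -0.68 and 0.38. Relative to the median of all genes the members stood at -0.22, -0.40 and -0.36, and Hnrnpd in central BM stood at -1.09, although its own value was 0.67. These comparisons therefore concern a gene's share of the library and not its amount per cell, and in pools of cells fewer cells with a transcript cannot be told apart from less of it in each cell. The share of reads outside annotated genes differed between the genotypes as given above, and its part in the result was not tested. Depth differed too. With all libraries thinned to the smallest the members' median was -0.36 in central and -0.36 in endosteal BM, beside -0.08 and 0.007 over all genes. With at least 10 counts in every library the members' median was -0.089 and -0.31, beside -0.017 and 0.005 over all genes. Without Gfra2-/- endosteal D, which held B cell and erythroid markers, or Gfra2-/- endosteal B, the median over the members in endosteal BM stayed within -0.45 to -0.30, the range over all 8 single libraries left out, and it was -0.42 without both. Over all genes the median was -0.021 without D, -0.021 without B and -0.065 without both, beside 0.030 with all 8 libraries.

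For several well-known or abundant members the libraries of the genotypes overlapped in both compartments. Hnrnpll, which controls the splicing of the Ptprc transcript in lymphocytes, was at -0.04 (SE 0.69) in central and -0.32 (SE 0.57) in endosteal BM. Sf3b1 was at 0.32 (SE 0.27) and -0.19 (SE 0.24), and Snrpb at -0.16 (SE 0.31) and -0.09 (SE 0.18). Hnrnpk, which binds C-rich RNA, was at -0.59 (SE 0.28) and -0.05 (SE 0.28). Sf3b6 was at 0.01 (SE 0.46) and -0.46 (SE 0.25), and Srsf7 at 0.03 (SE 0.37) and 0.24 (SE 0.23).

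A further 108 genes of splicing outside these 4 families were listed by their role in it. In central BM 60 of the 106 tested were fitted lower and 46 higher between the genotypes (median -0.12), and in endosteal BM 66 of 108 were lower and 42 higher (median -0.15). At an unadjusted p under 0.05, 13 were lower (12.3%) and 4 higher in central BM, and 8 were lower (7.41%) and 3 higher in endosteal BM. Over all genes 4.14% were lower and 4.60% higher in central BM, with 7.01% lower among genes with at least 10 counts in every library, and 3.52% were lower and 3.18% higher in endosteal BM. None of the 108 was called by edgeR in either.

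The Lsm genes, whose products form a ring like that of the Sm proteins around the U6 RNA or on decaying messenger RNAs, had 6 of 8 members fitted lower in central BM (median -0.75) and 8 of 8 in endosteal BM (median -0.79). In endosteal BM Lsm2 was at -0.93 (SE 0.34), Lsm3 at -0.80 (SE 0.32) and Lsm8 at -0.78 (SE 0.35), and in central BM Lsm4 was at -1.72 (SE 0.41) and Lsm6 at -2.17 (SE 0.62). The SR protein kinases, importers and related genes had 7 of 12 fitted higher in each compartment, with medians of 0.15 and 0.17, beside 48.6% and 48.5% of all genes fitted lower. Clk1 and Clk4, kinases that phosphorylate SR proteins, were at 0.64 (SE 0.28) and 0.79 (SE 0.35) in endosteal BM.

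In the fit over both compartments 3 of the 108 were called, all lower, beside 0.525% of all genes called lower and 0.279% higher. They were Sfpq, a partner of Nono in nuclear RNA processing, at -0.94 (SE 0.21, adjusted p = 0.0657 by edgeR), Lsm4 at -1.17 (SE 0.28, adjusted p = 0.0981) and Pdcd7, a protein gene of the minor spliceosome, at -2.41 (SE 0.59, adjusted p = 0.0981).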

How the data were processed

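The authors sorted pools of 30 HSCs, made Smart-seq2 libraries, aligned the reads with GSNAP (2015-09-29) to mm10 and counted them per gene with HTSeq (0.5.3p3), as the submitters' processing notes and the study's methods give it. The deposited table holds unnormalised read counts. Its columns were tied to the labelled groups through the study's supplementary sample list, without replicate numbers, and 1 column that could not be tied was not used. A figure legend of the study describes the replicates as biological, while its methods give differing numbers of replicates for library preparation and sequencing. Whether each pool came from a separate mouse is not stated.

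Counts were tested with edgeR 4.0.16 (filterByExpr, TMM, quasi-likelihood test, Benjamini-Hochberg adjustment, threshold 0.1) within the groups compared, and over all 15 libraries for the interaction. DESeq2 1.42.0 and other scalings, filters and sets of libraries were alternatives. Scripts were tested on simulated data. The members and gene lists were chosen with earlier results of these data known. Genes were named where edgeR or DESeq2 called them, where they had 1 of the 2 smallest p or highest levels of their family, or because they are well known. Others were named after their values were seen. Exon lengths and overlaps came from GENCODE M21 and promoters from RefSeq, both on GRCm38. Among library pairs of a group no 2 agreed within sampling noise. Counts of 826487 to 18550008 per library limit the precision of low genes. Protein sequences were not used here.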

Additional observations from a re-analysis of the deposited data

Results flagged for a closer look

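With 3 groups of 4 libraries and 32 named genes, 96 sets of 4 values were examined for a library far from the others of its group (the gap to the nearest value as a share of the group's range), and chance alone flags about 1 set in 20. The flagged sets, all given below, were no more frequent than that. In Gfra2-/- endosteal B, Srsf2 stood at 1241 CPM against 278 to 344 CPM in the other libraries of the group, a gap of 0.931 of the range. Hnrnpa0 stood at 386 CPM in the same library against 41.5 to 89.3 CPM, a gap of 0.861. This library also held the largest number of Gfra2 counts (47), the largest share of reads outside annotated genes (30.1%) and 159 CPM of erythroid markers. Hnrnpu stood at 398 CPM in WT central C, the shallowest library, against 222 to 238 CPM, a gap of 0.912. Snrpn stood at 3.44 CPM in Gfra2-/- endosteal A against 0 to 0.201 CPM, a gap of 0.941 that rests on 51 counts there and 0 to 4 counts in the others.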

How the results depend on the processing

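No paired analysis was possible because libraries are identified in the table only by group, with no replicate number to match across groups. A fit with the share of spike-in reads (under or over 0.5%) as a covariate gave the same number of members called in each of the 6 comparisons. The number of members called was 0 in the 5 planned comparisons and stayed 0 when any single library was left out. With DESeq2 it was 1 between WT compartments, 1 between Gfra2-/- compartments, 4 between genotypes in central BM, 3 in endosteal BM and 10 over both compartments. In central BM it was 1 with no filter, 1 with at least 10 counts in every library and 1 after thinning. Over both compartments the count of 1 became 2 with DESeq2 size factors, 4 with at least 10 counts in every library and 4 after thinning. It became 0 with spike-in factors, with no filter, at a threshold of 0.05 and in libraries with more spike-in reads. It was also 0 among libraries with over 1500000 gene counts and under 20% mitochondrial, which leave out WT central A and C. The study set its depth cut-off on uniquely mappable reads, of which gene counts are only a part. WT central A held 270544 ambiguous counts beside 1230252 gene counts, so it may have passed the study's own rule. With a single library left out the number of members called over both compartments was 0 to 3.

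Spike-in factors moved the members' median log2 fold change to 1.54 (WT compartments), -0.50 (Gfra2-/- compartments), 1.54 (central), -0.68 (endosteal), -2.05 (interaction) and 0.38 (both compartments), with all genes moving too. The members' median was also -0.058 between WT compartments with DESeq2, 0.20 between Gfra2-/- compartments in libraries with more spike-in reads, -0.089 in central BM with at least 10 counts in every library, and for the interaction 0.16 with DESeq2, 0.16 with its size factors and -0.18 without the libraries against their label. Over all genes of the same fits the medians were -0.30, 0.03, -0.02, 0.42, 0.03 and -0.27 in that order, so the whole fit moved too. With a single library left out the members' median ranged from 0.01 to 0.09, -0.04 to 0.14, -0.40 to -0.20, -0.45 to -0.30, -0.11 to 0.13 and -0.34 to -0.20 in the order of the comparisons above. Of the 26 gene results recomputed under each setting, signs turned with spike-in factors for Sf3b2 (1.48) and Snrpg (0.94) between WT compartments, for Hnrnpa2b1 (0.84), Hnrnpab (0.42), Hnrnpd (0.67), Sf3b2 (1.35), Snrpe (0.45) and Snrpg (0.27) in central BM and for Hnrnpa2b1 (0.11) over both, and other members outside these turned too. The cause was not tested.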
